A study of Mus musculus with 15 samples.

Results

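A set of 10 imprinted mouse genes and their hosts was followed at the level of the single allele in mouse organoids. In 4 places a small gene lies inside a larger host gene, namely Nnat in Blcap, Mcts2 in H13, Nap1l5 in Herc3 and Zrsr1 in Commd1. Inpp5f and Impact are single-gene domains. The 10 genes were taken by name out of 44260 genes in the table, and all 10 were found there. Each of the 3 libraries, titled C1 to C3 and called libraries 1 to 3 here, holds RNA of day 12 organoids derived from SpretB6 epiblast stem cells, whose cells carry a genome copy of the laboratory strain C57BL/6J (B6) and a copy of Mus spretus (Spret). The labels name no mutant allele or agent, refer to an earlier study for growth and treatment, and do not say whether C1 to C3 are separate lines. Libraries of inbred parents or of the reverse cross were not analysed here. The series lists 12 further samples, induced pluripotent stem cells of 4 crosses, which were not analysed here.

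Imprinted genes are transcribed mainly from the copy inherited from one parent, because DNA methylation laid down in the egg or the sperm silences the other copy. Several small imprinted genes of the mouse arose by retrotransposition into an intron of a host gene, and their promoters are methylated on the maternal copy, so that the small gene is read from the paternal copy. In mouse brain the transcription of the inner gene can go along with a lean of the host, or of some of its transcripts, to the maternal copy. Nnat, Mcts2, Nap1l5, Zrsr1 and Impact are known as paternally expressed in mice, and Inpp5f holds a shorter paternally expressed brain transcript that starts at an internal promoter.

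The promoters of the 4 inner genes are shown because they lie in the regions whose methylation is known to set which copy is read. The windows cover 250 bases before and 50 after the annotated start, from RefSeq on GRCm38.p6, and 9 of the 10 genes had such a window there. Capitals mark the motif TGCCGC on either strand (GCGGCA on the other), the letters that the zinc finger protein ZFP57 is known to bind when methylated at imprinted regions of mouse stem cells. The lines give, in turn, Nnat at chr2:157559828-157560127 on the plus strand, Mcts2 at chr2:152686898-152687197 on the plus strand, Nap1l5 at chr6:58907077-58907376 on the minus strand and Zrsr1 at chr11:22971755-22972054 on the plus strand.
Nnat: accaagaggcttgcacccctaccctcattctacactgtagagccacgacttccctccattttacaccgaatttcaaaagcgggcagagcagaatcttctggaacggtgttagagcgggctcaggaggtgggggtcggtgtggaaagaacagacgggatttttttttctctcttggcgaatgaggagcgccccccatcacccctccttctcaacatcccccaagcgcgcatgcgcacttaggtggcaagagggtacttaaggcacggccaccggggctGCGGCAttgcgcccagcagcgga
Mcts2: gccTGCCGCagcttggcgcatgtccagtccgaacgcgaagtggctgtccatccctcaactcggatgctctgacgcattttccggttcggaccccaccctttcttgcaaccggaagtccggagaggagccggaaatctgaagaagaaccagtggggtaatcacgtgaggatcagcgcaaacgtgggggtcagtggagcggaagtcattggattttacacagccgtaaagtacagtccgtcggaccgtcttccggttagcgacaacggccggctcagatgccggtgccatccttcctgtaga
Nap1l5: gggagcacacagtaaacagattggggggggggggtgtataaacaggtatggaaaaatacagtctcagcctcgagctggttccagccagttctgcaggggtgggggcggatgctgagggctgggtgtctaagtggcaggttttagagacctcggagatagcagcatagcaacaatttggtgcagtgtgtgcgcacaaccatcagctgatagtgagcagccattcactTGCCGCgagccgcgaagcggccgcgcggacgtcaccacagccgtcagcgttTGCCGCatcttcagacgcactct
Zrsr1: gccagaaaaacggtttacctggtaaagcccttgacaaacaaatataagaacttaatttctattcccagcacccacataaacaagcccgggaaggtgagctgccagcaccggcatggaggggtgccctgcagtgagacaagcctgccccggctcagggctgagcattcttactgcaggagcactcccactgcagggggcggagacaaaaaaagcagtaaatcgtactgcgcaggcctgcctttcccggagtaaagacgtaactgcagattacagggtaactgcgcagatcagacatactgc
The motif occurred 2 times in the window of Nap1l5, 1 time in those of Nnat and Mcts2 and 0 times in that of Zrsr1, with no overlap between occurrences. Of 32851 windows of this length in the table, 11.6% held it at least 1 time and 1.53% at least 2 times. Among host windows it occurred 1 time in the first of 2 windows of Commd1 and 0 times in those of Blcap, H13 and Herc3. It occurred 0 times in the second window of Commd1, which lies within Zrsr1. It also occurred 0 times in the window of Inpp5f. The window of Mcts2 held 25 CpG sites, those of Nnat and Nap1l5 17 each and that of Zrsr1 10, where the median over all windows was 7. Such numbers were not particular to inner genes. H13 had 21, the first window of Commd1 18, Blcap 17, Inpp5f 15 and Herc3 4. The second window of Commd1 had 17, but it is sequence of Zrsr1 as well. The sequences are those of the B6 reference. The Spret sequence was not used here.

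Each value is a read number of 1 allele that the authors normalised and rounded to a whole number, and a Spret share is the Spret value divided by the sum of both alleles. The column sums ranged from 2088788 to 3027078. The spacing of the values pointed to scale factors of 1.156, 1.276 and 0.672 in libraries 1, 2 and 3, which puts the deepest sequencing in library 3. Over autosomes the Spret share was 47.7% ± 0.137 (SD, n = 3). X-linked values came from Spret at 0.0941% ± 0.00595 and Y-linked values at 99.5% ± 0.280, the pattern of cells with a B6 mother and a Spret father, so that Spret is taken as the paternal copy of the autosomes. An effect of strain and one of parental origin cannot be told apart in a single direction of cross. The labels name the tissue as epiblast stem cells, but 10 markers of dorsal forebrain and neurons summed over both alleles to 20822, 20232 and 19652 in libraries 1, 2 and 3. The sums were 126, 169 and 90 for 8 markers of epiblast and pluripotency. Of the first sums, Map2, a gene of neurons in general, gave 8725, 8041 and 9889, so they do not measure dorsal forebrain alone. Choroid plexus markers summed to 3246, 809 and 487, of which Ttr alone gave 2555, 534 and 323. None of the markers in these 3 lists was listed at 0 in all columns, and the part of tissue makeup in differences between libraries was not tested. The allele test below, limma, mixes a gene's own spread over the 3 libraries with that of other genes of like level. The gene itself gives 2 degrees of freedom and the other genes 12.3. Standard errors of log2 ratios are of this mixed kind and can be smaller than a gene's own spread. Spread between the 3 libraries may be technical.

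The tested genes known for paternal expression did not read mainly from the Spret copy. Those abundant enough to test, Nnat, Zrsr1 and Impact, all read higher from B6, by 1.88-fold, 1.6-fold and 1.53-fold. Inpp5f also read higher from B6, by 3.49-fold. Its value pools all transcripts, of which only a shorter one is known as paternal, so it does not show the lean of that transcript. Of the 4 hosts, Herc3 was higher from B6 by 1.3-fold, and Blcap, H13 and Commd1 did not pass the test. The test was limma on the paired difference of log2(value + 1) within a library, for genes whose 6 values averaged 10 or more, with Benjamini-Hochberg adjustment over 15985 genes and a threshold of 0.05. Of 8 tested genes 5 were thus called higher from B6 and 0 from Spret, where 28.4% of 15456 autosomal tested genes were called, 20.7% higher from B6 and 7.78% higher from Spret. The median ratio of autosomal genes was -0.13 on the log2 scale. When ratios were centred on that median in each library, Zrsr1, Inpp5f and Impact kept their calls, against 13.5% of autosomal genes called toward B6, while Nnat (limma adjusted p = 0.0524) and Herc3 (0.123) did not. The call of Inpp5f was the only 1 of the 5 that held without the pairing of alleles by library, and that of Zrsr1 the only 1 that held with no filter on low values. Mcts2 and Nap1l5 fell under the filter and are given as values. The Spret share was below 50% in every library for 7 of the 8 tested genes, all but Blcap, and for 36.8% of autosomal tested genes.

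**Figure D1:**
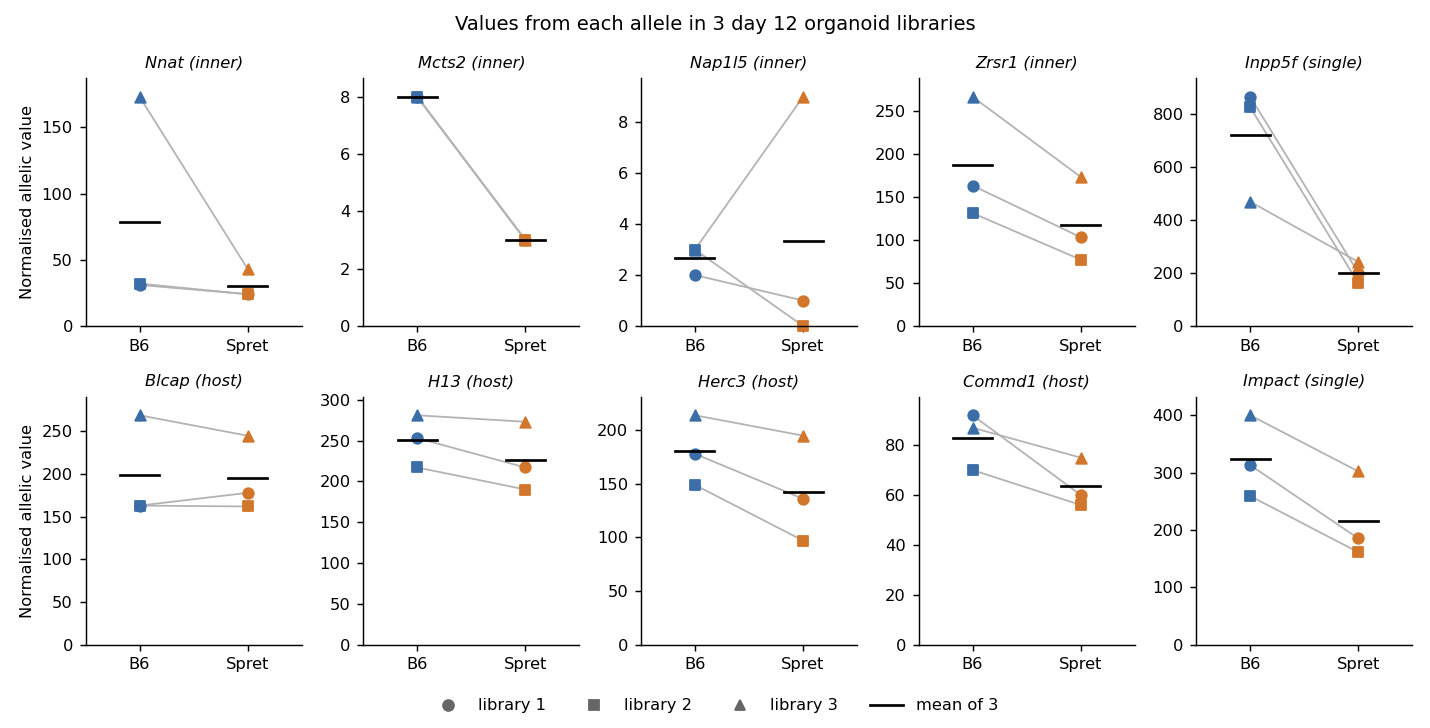
Normalised allelic value (vertical axis, linear from 0) of each of the 10 genes from the B6 and the Spret copy, with lines joining the alleles of 1 library and black bars at the mean of 3 libraries. Inpp5f stands at 468 to 863 from B6 and 161 to 241 from Spret, and the B6 value of Nnat is 173 in library 3 against 31 and 32 in the others.

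Nnat encodes neuronatin, a small membrane protein of the endoplasmic reticulum in developing neurons, and lies on chromosome 2 (157560078 to 157562522, plus strand, mm10) inside Blcap. It read 31, 32 and 173 from B6 and 24, 24 and 43 from Spret in libraries 1, 2 and 3. The B6 value was the higher in each library, but B6 values of libraries 1 and 2 lay below the Spret value of library 3, so the alleles overlap. Summed over alleles Nnat stood at 55, 56 and 216, so library 3 had the most of it. The Spret share was 43.6%, 42.9% and 19.9%, with the lowest share in the library of highest level. The log2 ratio was -0.91 ± 0.29 (SE, n = 3; limma adjusted p = 0.0281). That call rests on library 3, since without it the ratio was -0.38 (limma adjusted p = 0.479), and without library 1 it was -1.19 (0.0619). A range of Spret share between libraries as wide as that of Nnat was seen in 4.19% of 13164 autosomal tested genes whose values summed to 100 or more. An annotated microRNA gene, Gm23134, lies within Nnat and shares 38 of the 2085 sequences of 50 bases in Nnat transcripts. It read 9, 5 and 24 from B6 and 6, 8 and 3 from Spret, and whether it counts reads of Nnat was not tested.

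Blcap, the host of Nnat, encodes a small membrane protein first described in bladder cancer, and runs on the opposite strand of chromosome 2 (157556362 to 157571274). Of its 6 annotated transcripts 3 span Nnat and 0 overlap a Nnat exon. Blcap read 163, 163 and 269 from B6 and 178, 162 and 245 from Spret. The alleles overlapped, and which of them was higher differed between libraries. Its Spret share was 52.2%, 49.8% and 47.7%, and the log2 ratio was -0.01 ± 0.10 (limma adjusted p = 0.974). The share of Nnat minus that of Blcap was -8.56, -6.99 and -27.8 percentage points, so the inner gene was the lower in every library.

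Mcts2 is an intronless copy of the X-linked Mcts1, which encodes a factor that acts with Denr in the restart of translation, and it lies on chromosome 2 (152687035 to 152687946) on the same strand as its host H13. Mcts2 read 8 from B6 and 3 from Spret in each library, a Spret share of 27.3%. With the estimated scale factors these are about 6.9, 6.3 and 11.9 reads from B6 and 2.6, 2.4 and 4.5 from Spret, so the equal values are a matter of scaling and rounding, and the share rests on few reads. Without the filter on low values Mcts2 had a log2 ratio of -1.17 (limma adjusted p = 0.147). Its X-linked source Mcts1 was listed at 0 from Spret in every library and read 69, 100 and 74 from B6. The best local alignment of the Mcts2 and Mcts1 transcripts was 84.3% identical over 656 bases, and they shared 0 sequences of 50 bases.

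H13 encodes signal peptide peptidase, a protease that cuts signal peptides within the membrane, and spans 152669461 to 152708670 on chromosome 2. In mice its transcripts are known to end at different sites on the 2 parental copies, upstream or downstream of Mcts2. Over all its transcripts, which the table pools, H13 read 253, 217 and 281 from B6 and 217, 190 and 273 from Spret. B6 was higher in each library by a small amount and the alleles overlapped. Its Spret share was 46.2%, 46.7% and 49.3%, and the log2 ratio was -0.15 ± 0.09 (limma adjusted p = 0.23). Of the sequences of 50 bases in H13 transcripts, 7.96% occur in another annotated gene, Gm26841, on one strand or the other.

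Nap1l5 encodes a protein of the nucleosome assembly family found in brain and lies on the minus strand of chromosome 6 (58905233 to 58907076), inside Herc3 on the plus strand. It read 2, 3 and 3 from B6 and 1, 0 and 9 from Spret. The Spret value was lower in libraries 1 and 2 and higher in library 3, and no value reached 10. Its Spret share of 33.3%, 0% and 75.0% rests on at most about 13.4 reads of an allele, and no lean can be read at this depth. Without the filter the log2 ratio was -0.42 (limma adjusted p = 0.779).

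Herc3 encodes a ubiquitin ligase with a HECT domain and covers 58831465 to 58920398 on chromosome 6. It read 178, 149 and 214 from B6 and 136, 97 and 195 from Spret, with B6 higher in each library and the alleles overlapping. In Spret share it stood at 43.3%, 39.4% and 47.7%, with a log2 ratio of -0.38 ± 0.12 (limma adjusted p = 0.0261). The call ended without library 1 (0.146) and without library 2 (0.152). Only 1 of 12 annotated Herc3 transcripts spans Nap1l5.

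Zrsr1 is related to the small subunit of the splicing factor U2AF and lies on chromosome 11 (22972005 to 22976496, plus strand) inside Commd1. It read 163, 131 and 266 from B6 and 103, 77 and 173 from Spret. B6 was higher in each library, with a Spret share of 38.7%, 37.0% and 39.4%, a spread of 1.23 percentage points (SD, n = 3) around 38.4%. The alleles overlapped because the level was higher in library 3 than in the others, in both alleles. The log2 ratio was -0.68 ± 0.11 (limma adjusted p = 0.000342), and the call held without each library in turn (0.0022 to 0.0121). Its X-linked relative Zrsr2 read 409, 392 and 320 from B6 and 6, 0 and 1 from Spret. The best local alignment between their transcripts was 82.8% identical over 203 bases, with 0 shared sequences of 50 bases.

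Commd1 encodes a protein of copper balance and endosomal sorting and covers 22896136 to 22982382 on the minus strand of chromosome 11. It read 92, 70 and 87 from B6 and 60, 56 and 75 from Spret, with B6 higher in each library and the alleles overlapping. The Spret share was 39.5%, 44.4% and 46.3%, and the log2 ratio of -0.38 ± 0.16 did not pass the test (limma adjusted p = 0.0942). Exons of 2 of its 6 annotated transcripts overlap an exon of Zrsr1, and 317 sequences of 50 bases, 7.13% of those of Zrsr1 and 5.35% of those of Commd1, are found in both. No source used here says how strand was used in counting, so values of Zrsr1 and Commd1 are uncertain to that extent. Nor does any say whether intronic reads of a host were counted for the gene inside it. Mcts2 lies on the same strand as H13, and 3 H13 transcripts span it, so strand could not separate such reads there.

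Within libraries the inner gene had the lower Spret share in 3 of the 4 pairs. The difference of inner gene minus host was -14.4 ± 11.6 percentage points for Nnat and Blcap, -20.1 ± 1.67 for Mcts2 and H13, and -5.02 ± 3.71 for Zrsr1 and Commd1 (SD, n = 3), each below 0 in 3 of 3 libraries. The Mcts2 difference rests on few reads, and with 5 added to each allele it was -9.34. Whether unspliced host RNA added to the values of inner genes was not tested. For Zrsr1 and Commd1 the difference was only -0.752 points in library 1, and for Nnat and Blcap it was -7.78 points without library 3. For Nap1l5 and Herc3 it was -7.36 ± 33.5, below 0 in libraries 1 and 2 and above 0 in library 3. An exact two-sided sign-flip permutation test gave p = 0.25 for the first 3 pairs and p = 0.75 for Nap1l5 and Herc3, or 0.333 and 0.75 after Benjamini-Hochberg adjustment over the 4 pairs. With 3 libraries 0.25 is the smallest p this test can give, so no difference of this kind could pass 0.05.

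**Figure D2:**
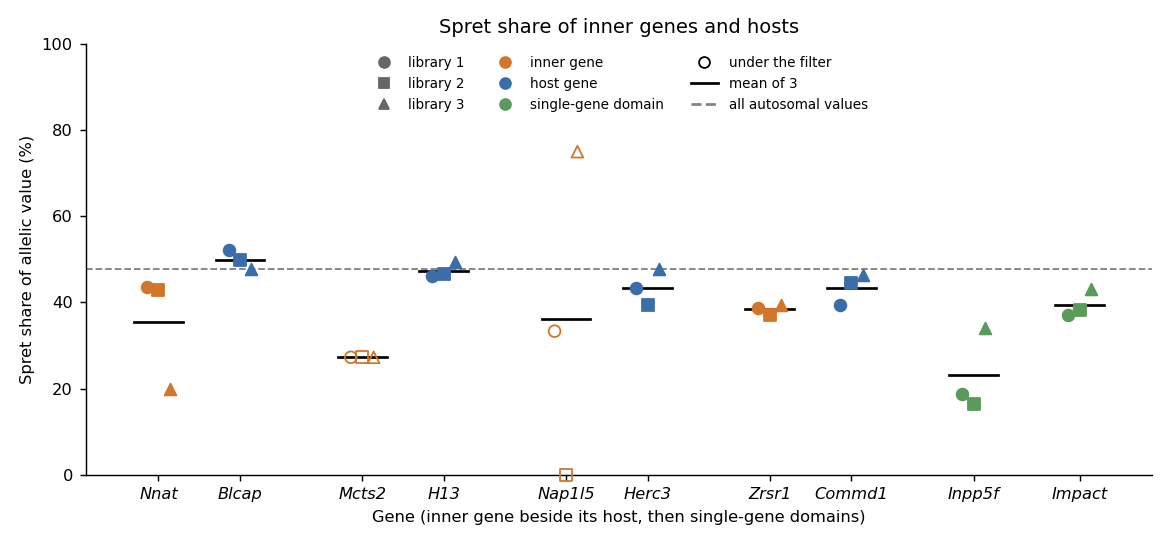
Spret share of the allelic value in percent (vertical axis) for each inner gene beside its host and for the single-gene domains, with 1 symbol per library, black bars at the mean of 3 and open symbols for genes under the filter. The shares of Nnat, Mcts2 and Zrsr1 sit below those of Blcap, H13 and Commd1 in each library, and the dashed line marks 47.7%, the share over all autosomal values.

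Other imprinted genes with an overlapping partner were set beside these pairs. Peg13, a paternally expressed noncoding RNA inside Trappc9, had a Spret share of 72.6%, 53.7% and 68.2% and was called higher from Spret (log2 ratio 0.88 ± 0.25, limma adjusted p = 0.0146). Its difference from Trappc9 was 10.8 ± 9.07 points (SD, n = 3), with 15.6, 0.339 and 16.5 points in libraries 1, 2 and 3 (exact sign-flip permutation p = 0.25). It was thus above 0 in each, but barely so in library 2. The differences were -3.50 ± 0.987 for Kcnq1ot1 and Kcnq1 and 21.2 ± 26.6 for Airn and Igf2r (exact sign-flip permutation p = 0.25 and 0.5), and Kcnq1 and Airn fell under the filter. For Airn and Igf2r the difference was -9.50 points in library 3 and above 0 in the others, and its mean ran from 13 to 36.5 with a library left out.

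Inpp5f encodes a phosphatase that removes a phosphate from phosphoinositides on endosomes, and lies on chromosome 7 (128611328 to 128696425, plus strand). It read 863, 823 and 468 from B6 and 200, 161 and 241 from Spret. Every B6 value was above every Spret value, which holds for 1 of the 8 tested genes in this set and for 16.8% of autosomal tested genes. Spret gave 18.8%, 16.4% and 34% of the value, and 1.46% of autosomal tested genes had a lower mean share. Library 3 stood apart, with the lowest B6 value and the highest Spret value, although the summed values were 1063, 984 and 709. The log2 ratio was -1.80 ± 0.18 (limma adjusted p = 1.46e-06), and it was -2.23 without library 3 (7.94e-10). By library it was -2.10, -2.35 and -0.95, so the small SE and p-values rest largely on the spread of other genes. A range of Spret share between libraries as wide as that of Inpp5f was seen in 11% of the same autosomal genes. GENCODE lists 9 transcripts of Inpp5f with 8 different starts, and the table gives 1 value for the gene, so the shorter brain transcript is not measured apart from the rest. Of its sequences of 50 bases, 3.72% occur in other genes, led by the pseudogene Gm43580 within Inpp5f, with values of 6, 8 and 0 from B6 and 0 in each library from Spret.

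Impact encodes a protein that binds Gcn1 and so keeps the stress kinase GCN2 in check, and it lies on chromosome 18 (12955852 to 12992950, plus strand). It read 313, 259 and 400 from B6 and 185, 161 and 302 from Spret. B6 was higher in each library, and the alleles overlapped because both were highest in library 3. Its Spret share was 37.1%, 38.3% and 43%, with a log2 ratio of -0.61 ± 0.09 (limma adjusted p = 0.000159). The call held without each library in turn (0.000584 to 0.0155). None of its sequences of 50 bases occurred in another gene.

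By mean Spret share the tested genes ran from Inpp5f at 23.1% through Nnat at 35.5%, Zrsr1 at 38.4%, Impact at 39.5%, Commd1 at 43.4%, Herc3 at 43.5% and H13 at 47.4% to Blcap at 49.9%. The ranges over libraries of each gene and the next in this order overlapped. Among the 13163 others of these autosomal genes, those nearest to Inpp5f in the shares of the 3 libraries were Sertm1, 1700012D14Rik and Gm33280, at 5.0 to 5.53 percentage points of Euclidean distance. For Nnat they were Rgs16, Gm42639 and Dmrta1, at 4.70 to 5.48 points. The genes nearest to Zrsr1 were Dtd2, Hspd1 and Dph3, and those nearest to Impact were Gm42957, Fez1 and Rad50, at 0.46 to 0.77 points over both. For the hosts they were H2ac21, Tmem263 and Pcdhac2 for Blcap, Tent4a, Tnik and Cnst for H13, Smarcal1, Btbd9 and Irf2bp2 for Herc3, and Urm1, Yipf5 and Erbin for Commd1, at 0.27 to 1.11 points. These likenesses rest on 3 libraries.

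**Figure D3:**
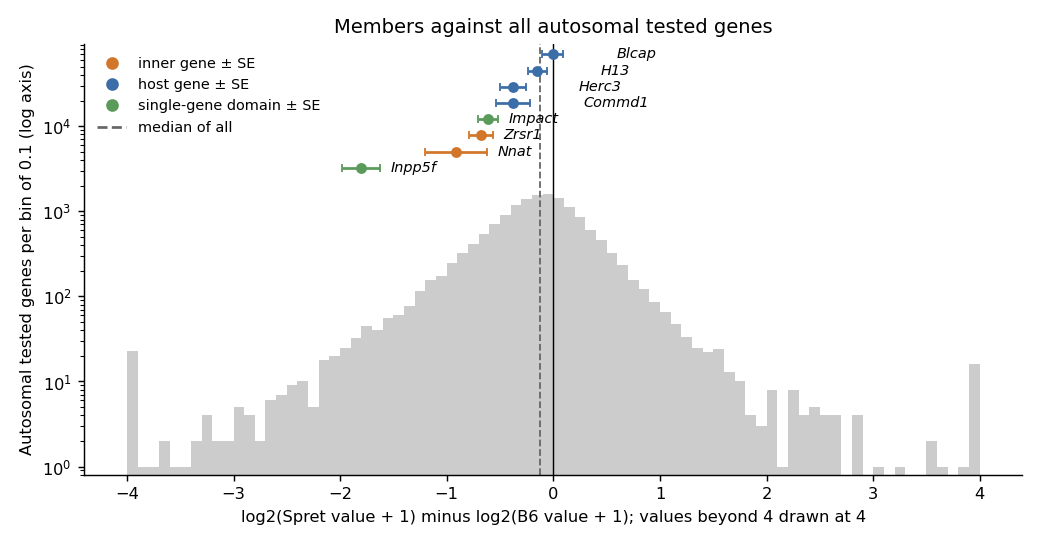
Histogram of the log2 ratio of Spret to B6 (horizontal axis) over 15456 autosomal tested genes, on a log axis of gene number, with the 8 tested genes above it as points with standard errors. Inpp5f lies farthest to the left at -1.80, and Blcap at -0.01 and H13 at -0.15 stand near the dashed median of all genes at -0.13.

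Genes around these domains were also compared. Among the 3 nearest tested genes on each side of the 6 domains, 36 in all, 5 were called higher from B6 and 1 from Spret, and their median Spret share was 49.8%. Over all autosomal tested genes 20.7% were called higher from B6 and 7.78% from Spret, so 0 calls among 6 genes says little on its own. Around Inpp5f 0 of 6 were called, with log2 ratios from -0.72 to 0.73. Around Impact 0 of 6 were called, with shares from 45.6% to 50.8%. Around Blcap and Nnat 0 of 6 were called, from -0.56 to 0.34. Around H13 and Mcts2, Zcchc3, a nucleic acid sensor, was called toward B6 (log2 ratio -0.77 ± 0.23). Around Commd1 and Zrsr1, B3gnt2, a glycosyltransferase, and Ehbp1, an adaptor of endosomal transport, were called toward B6 (-1.31 ± 0.45 and -0.31 ± 0.10). In library 2, however, B3gnt2 read 17 from each allele. Around Herc3 and Nap1l5, Abcg2, a membrane transporter, and Tigd2 were called toward B6 (-0.86 ± 0.29 and -0.77 ± 0.24), and Gprin3 toward Spret (1.59 ± 0.19). Limma adjusted p-values of these 6 calls were at most 0.0375.

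**Figure D4:**
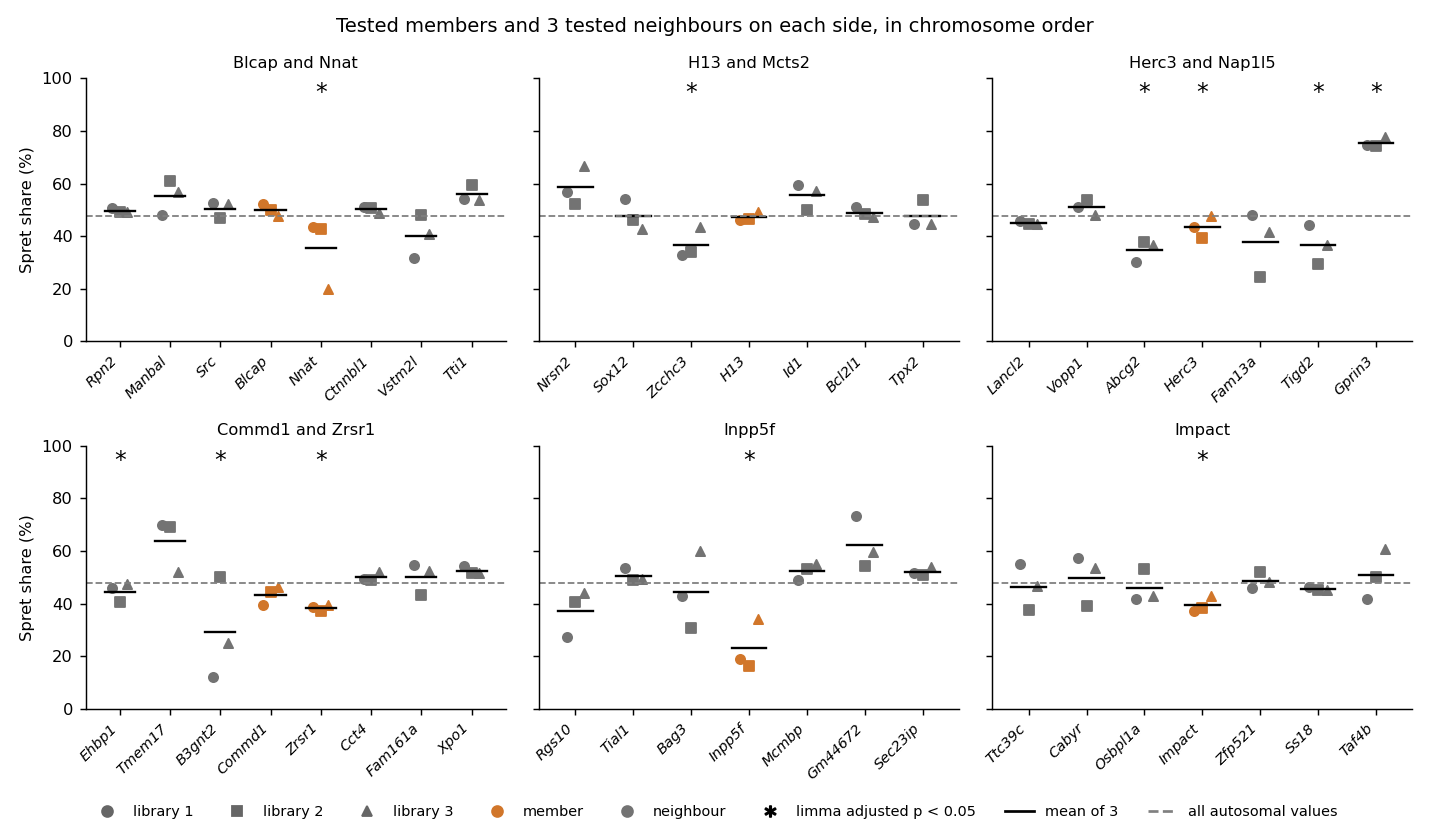
Spret share in percent (vertical axis) of the tested genes of the 6 domains (orange) and of 3 tested neighbours on each side (grey), in chromosome order, with 1 symbol per library, bars at the mean of 3 and asterisks for limma adjusted p under 0.05. Inpp5f at 23.1% stands between neighbours at 37.2% to 62.4%, and Impact at 39.5% between neighbours at 45.6% to 50.8%.

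Other imprinted genes were listed as paternally or maternally expressed, and whether each keeps that pattern in these organoids was not tested. Among 19 tested genes listed as paternally expressed, 4 were called toward Spret and 2 toward B6, and the median log2 ratio was 0.15. Those of highest summed value in each direction were Kcnq1ot1, a long noncoding RNA (1.05 ± 0.21, limma adjusted p = 0.0014), and Plagl1, a zinc finger factor (-0.50 ± 0.07, 5.66e-05). Kcnq1ot1 was not even between libraries, with a Spret share of 59.7%, 58.5% and 81.1% in libraries 1, 2 and 3. Its ratio was thus raised by library 3, and its call without that library is not given here. Of 16 tested genes listed as maternally expressed, 1 was called toward Spret and 3 toward B6, with a median of -0.19. Those of highest summed value were Copg2, a coat protein subunit (0.30 ± 0.10), and the ubiquitin ligase Ube3a (-0.35 ± 0.06). The other calls, named after their values were seen, were Mest, Snurf and Peg13 toward Spret and Peg10 toward B6 in the first list, and Igf2r and Ppp1r9a toward B6 in the second. The median over all autosomal tested genes was -0.13, with 7.78% called toward Spret and 20.7% toward B6. Mean Spret shares ran from 35.0% to 66.4% in the first list and from 35.4% to 55.8% in the second, so none passed 90% or fell below 10%. Over all autosomal tested genes 19 had a mean share above 90% and 42 below 10%. Of 10 tested genes that maintain imprints, Trim28, the corepressor bound by ZFP57, was higher from Spret (0.26 ± 0.06), and Zfp445, a zinc finger protein of imprinted regions (-0.37 ± 0.07), and Uhrf1, a partner of the maintenance methyltransferase (-0.50 ± 0.17), were higher from B6. Uhrf1 was named after its values were seen. Calls made up 30% of these 10 genes, near the 28.4% of all autosomal tested genes.

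The last list held relatives and known protein partners of the 10 genes. Calls toward Spret numbered 2 and calls toward B6 7 among 36 that were autosomal and tested, and the median log2 ratio was -0.018. That is near the 7.78% and 20.7% of all autosomal tested genes called toward Spret and B6, so the list as a whole does not stand out. The called gene of highest summed value in each direction was Commd4 (0.46 ± 0.14, limma adjusted p = 0.0263) and Herc1, a giant relative of Herc3 (-0.20 ± 0.05, 0.0046). Denr, the partner of Mcts1 and Mcts2, was called toward B6 (-0.71 ± 0.12) and so was Inpp5a, a phosphatase of soluble inositol phosphates (-1.08 ± 0.24), and Sppl2b, a relative of H13, was called toward Spret (0.60 ± 0.18). These 3 were named after their values were seen. All 6 X-linked genes of this list, among them Mcts1 and Zrsr2, were called toward B6. X-linked values as a whole came from Spret at only 0.0941%, so these calls were set by the chromosome and say nothing about the list.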

How the data were processed

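The deposited table gives a B6 and a Spret score per gene and library, which the authors made, per the file name, by normalising allele-specific read counts, and whose values are whole numbers. Per the labels, ribosomal RNA was depleted and 80M reads per library were planned, and per the submitters' processing notes the genome build was mm10. The aligner, allele assignment, counting tool and scaling are not given in the sources used here. Columns were matched to samples by library name. All 6 were used, and 0 pairs of columns were identical. Scale factors were estimated from the spacing of values by likelihood. The factor of library 3 is below 1 and merges neighbouring read numbers, so the reads behind a value are approximate, no count model was used and no interval for counting error is given. B6 sums were 2701847, 2413876 and 3027078, and Spret sums 2337998, 2088788 and 2639912, about 2.34M, 1.89M and 4.50M and 2.02M, 1.64M and 3.93M reads.

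Positions came from GENCODE M21 of GRCm38 for 42620 genes and from RefSeq for 899 more. Alleles were compared with limma 3.58.1 (R 4.3.3) on log2(value + 1), where the added 1 understates ratios of low genes, fitting an allele effect within libraries and letting the prior spread follow intensity. The fit was also run on simulated data in which a gene's underlying allelic ratio was the same in each library. That run says nothing on genes whose ratio differed between libraries. Alleles were paired by library because each library's RNA gave both. Sequences of 50 bases were compared over GENCODE transcripts on both strands. The genes and lists were chosen with earlier results of these data known. Named genes were all 10 genes, every called neighbour, for each list and direction the called gene with the greatest sum of values, Mcts1 and Zrsr2, and the 3 genes nearest in Spret share. Alternatives were other filters and pseudocounts, centred ratios, no trend, no pairing and leaving out each library.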

Additional observations from a re-analysis of the deposited data

How the results depend on the processing

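The number of genes called, 4852, was 1236 with no filter on low values, 2229 without the trend, 1537 without the pairing of alleles by library (no replicate block) and from 2667 (without library 1) to 4001 when a library was left out. The cause was not tested. Without the pairing the calls of Nnat, Zrsr1, Herc3 and Impact ended at unchanged ratios of -0.91, -0.68, -0.38 and -0.61, with limma adjusted p = 0.374, 0.237, 0.426 and 0.165, and that of Inpp5f did not. With no filter those of Nnat, Herc3, Inpp5f (-1.80) and Impact ended (0.363, 0.221, 0.103 and 0.0786), and without the trend those of Nnat, Herc3 and Impact (0.186, 0.153 and 0.0524). Centring moved Nnat to -0.79, Herc3 to -0.25 and Blcap to 0.12. With a library left out the ratio ran from -1.19 to -0.38 for Nnat, from -0.50 to -0.26 for Herc3 and from -0.072 to 0.059 for Blcap. Mcts2 was at -1.28 with a pseudocount of 0.5 and -0.70 with 5. The difference of Nap1l5 and Herc3 was 5.72 points with 5 added to each allele and ran from -24.7 to 8.67 with a library left out. That of Kcnq1ot1 and Kcnq1 was 0.059 as a log2 ratio and 7.33 points with 5 added. Those of Nnat, Mcts2 and Zrsr1 from their hosts stayed below 0 under all 5 alternatives run, but that of Mcts2 shrank to -9.34 points with 5 added. Depth limits Mcts2 and Nap1l5 most.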

Other observations

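Library 3 stood apart from the others at an imprinted cluster outside this set, which was picked after its values were seen. The noncoding RNA Meg3 on chromosome 12 had a Spret share of 11.7%, 14.5% and 86.1% in libraries 1, 2 and 3, with 4129, 3162 and 1153 from B6 and 545, 535 and 7116 from Spret. Rian ran the same way at 9%, 11.3% and 85.8%, and so did Rtl1, which is known for expression from the other parental copy, at 12.9%, 9.28% and 82.7%. Among the 10 genes described above, the Spret share was highest in library 3 for Inpp5f, Impact, Zrsr1, Herc3, Commd1, H13 and Nap1l5, lowest there for Nnat and Blcap, and the same in each library for Mcts2. How often autosomal genes at large were highest in library 3 was not counted, so no link to the Meg3 cluster can be read from this. Some of these differences were small, as for Zrsr1 at 38.7%, 37.0% and 39.4%, and Nap1l5 rests on few reads.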
